A study of Bubalus bubalis with 12 samples.

Results

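The 5 genes described here belong to sperm maturation, the acrosome and gamete fusion, and were read out of a chromatin immunoprecipitation on microarray (ChIP-on-chip) study of water buffalo (Bubalus bubalis) sperm: IZUMO4, CD9, PRSS37, ADAM32 and DPY19L2. They were taken by symbol, as all non-control probes of the array that carry 1 of these 5 gene names, which gave 51 of 177440 probes and 5 of 9328 gene symbols. The 5 were chosen with earlier results of these arrays in view, among them the differences between fertility groups, so their values are given here as a description and carry no test. The groups were sperm of 3 high-fertile bulls (HF2, HF3 and HF5) and of 3 subfertile bulls (SF1, SF4 and SF5). Chromatin came from cryopreserved semen and was cut with micrococcal nuclease, which digests DNA that is not held by nucleosomes or other proteins. Each bull gave 2 arrays, 1 for H3K4me2 and 1 for H3K27me3, so that 12 arrays were analysed. On each array the immunoprecipitated DNA was labelled with Cy5 and the input DNA of the same bull with Cy3, with no dye swap, after amplification by ligation-mediated PCR. The labels used here give neither the age of the bulls nor how fertility was scored, and 3 bulls a group limit the precision of every value below.

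H3K4me2 marks promoters and regulatory DNA open to transcription, and H3K27me3 is laid down by Polycomb complexes on silenced genes. In sperm most histones are replaced by protamines, and these marks are read on the nucleosomes that remain. The acrosome is the secretory vesicle on the sperm head whose release lets the sperm pass the egg coat, and fusion with the egg then relies on membrane proteins of both gametes. A value below is the log2 of the Cy5 over the Cy3 processed signal relative to the median probe of that array. A positive value thus means more immunoprecipitated DNA relative to input than at the median probe, and it is no measure of transcription.

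The probes were 60 bases long and were designed on the cattle genome (build HGSC Btau_3.1, per the file headers), so positions are those of cattle, and the array's own classes (CpG island, promoter, coding) are used. All 5 symbols are also protein-coding genes in the RefSeq annotation of the buffalo genome. The probes shown next are those on which the description of each gene turns, 5′ to 3′ as the array holds them, with each CpG dinucleotide, the site of DNA methylation, in capitals. The files used here do not give the strand. For IZUMO4 the first and last of 3 overlapping probes are shown, which together cover 92 bp, and the last was placed by its overlap with the others because its own label gives only the position of a whole CpG island.
IZUMO4 probe 1, coding, chr7:20178427-20178486: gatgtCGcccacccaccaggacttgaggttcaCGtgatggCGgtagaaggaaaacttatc
IZUMO4 probe 3, CpG island, chr7:20178459-20178518: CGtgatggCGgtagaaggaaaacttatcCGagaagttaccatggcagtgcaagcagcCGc
For CD9 the single first probe, 1 of the 5 probes of the second stretch and 1 of the 15 probes of the third stretch are shown, since these stretches gave opposite values in the same bull.
CD9 probe 1, CpG island, chr5:111020793-111020852: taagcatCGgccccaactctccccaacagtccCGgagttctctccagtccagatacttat
CD9 probe 3, CpG island, chr5:111020882-111020941: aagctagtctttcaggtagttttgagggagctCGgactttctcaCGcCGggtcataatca
CD9 probe 10, CpG island, chr5:111021483-111021542: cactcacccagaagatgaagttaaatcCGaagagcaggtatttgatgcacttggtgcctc
For PRSS37 all 3 probes are shown, since they lie apart over 4735 bp and share no bases.
PRSS37 probe 1, promoter, chr4:108781134-108781193: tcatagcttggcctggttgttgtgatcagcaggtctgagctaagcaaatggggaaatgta
PRSS37 probe 2, promoter, chr4:108781299-108781358: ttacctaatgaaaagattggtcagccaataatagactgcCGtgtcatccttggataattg
PRSS37 probe 3, promoter, chr4:108785809-108785868: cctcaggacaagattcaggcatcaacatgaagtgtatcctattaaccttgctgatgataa
For ADAM32 the lone promoter probe and the probe with the lowest value of HF5 are shown.
ADAM32 probe 1, promoter, chr27:36533156-36533215: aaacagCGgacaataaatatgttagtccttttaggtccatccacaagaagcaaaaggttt
ADAM32 probe 3, CpG island, chr27:36533492-36533551: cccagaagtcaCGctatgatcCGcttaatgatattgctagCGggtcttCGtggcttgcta
For DPY19L2 the probes are the first, 1 of the 3 that dipped in HF5, and the one that was highest in HF5.
DPY19L2 probe 1, CpG island, chr4:64225288-64225347: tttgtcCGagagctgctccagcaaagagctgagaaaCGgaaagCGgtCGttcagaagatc
DPY19L2 probe 4, CpG island, chr4:64225313-64225372: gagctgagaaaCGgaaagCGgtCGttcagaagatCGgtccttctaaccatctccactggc
DPY19L2 probe 15, CpG island, chr4:64225354-64225413: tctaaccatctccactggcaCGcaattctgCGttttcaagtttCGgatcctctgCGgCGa

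The genes differed in how they were covered. CD9 had 21 probes, of which 19 were CpG-island probes and 2 were coding probes, in 3 stretches over 787 bp. DPY19L2 had 17 probes, of which 14 were CpG-island probes and 3 were coding probes, all within 130 bp. ADAM32 had 7 probes over 409 bp, and 6 of them overlapped within 77 bp. PRSS37 and IZUMO4 had 3 probes each. Probes of a stretch were offset by a few bases only and shared most of their sequence, so they read nearly the same DNA and are not replicates. The mean G and C content was 41.7% for PRSS37, 47.1% for ADAM32, 49.3% for CD9, 50.7% for DPY19L2 and 52.2% for IZUMO4, against a median of 51.7% over all kept probes. The PRSS37 probes held 0 or 1 CpG site each, and those of DPY19L2 held 3 to 5. None of the spots of these 51 probes was saturated or marked as an outlier. Every one of them exceeded background in at least 11 of the 12 input hybridisations and in at least 10 of the immunoprecipitated ones.

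Across the whole array, input spots were well above background for 97.1% to 99.9% of probes and immunoprecipitated spots for 93.9% to 99.98%. Arrays differed in how the ratio followed base composition: probes with 32 or more G and C bases stood above those with 28 or fewer by 0.90 in HF5 and 1.02 in SF5 for H3K4me2 and by 0.65 in HF5 for H3K27me3, and by -0.24 to 0.22 on the other 9 arrays. Sperm and spermatid genes named as markers could be followed for 4 of 12 genes (TNP1, ODF1, AKAP3 and GAPDHS), and their median log2 ratio lay between -0.23 and 0.38 in high-fertile and between -0.13 and 0.27 in subfertile bulls for H3K4me2. A ratio of DNA to input does not count cells, so the purity of the sperm could not be read from these genes or from the 5 leukocyte, 5 epithelial and 3 somatic testis genes measured beside them. The moderated test of limma over 6805 genes with at least 2 probes called 0 genes between high-fertile and subfertile bulls for either mark after Benjamini-Hochberg adjustment. At an unadjusted p under 0.05 it gave 198 genes (2.91%) for H3K4me2 and 277 genes (4.07%) for H3K27me3. Called after adjustment were also 0 genes for H3K4me2 minus H3K27me3 (41 genes, 0.602%, unadjusted), for its interaction with fertility (45 genes, 0.661%), and for the mean ratio against the array median in H3K4me2 (302 genes, 4.44%) and H3K27me3 (360 genes, 5.29%). With the bull as a replicate block, since both marks were read in the same bulls, 0 genes were called after adjustment, and the unadjusted counts were 260 genes (3.82%) for H3K4me2 minus H3K27me3 and 268 genes (3.94%) for the interaction. The median gene had a 95% confidence interval of 1.20 for H3K4me2 and 1.10 for H3K27me3 on either side of its difference, on the log2 scale.

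In none of the 5 genes did the high-fertile bulls stand apart from the subfertile bulls, for either mark. The ranges of the groups did not overlap for 6.58% of all genes for H3K4me2 and 8.57% for H3K27me3, and 0 of 5 members were among them. These ranges, like the orders of bulls below, are in log2 units that were centred but not scaled between arrays. The same log2 value can thus stand at another percentile in another bull. For CD9 in H3K4me2, 0.73 in HF2 was at percentile 93.6 among the genes of its array, and 0.78 in HF3 was at 79.6. The members differed from one another in the spread between single bulls. ADAM32 ranged over 4.77 log2 units between the lowest and highest bull for H3K4me2, CD9 over 4.99, DPY19L2 over 2.37, PRSS37 over 2.00 and IZUMO4 over 0.95, against a median range of 1.71 over all genes. Only 1.31% of genes had as wide a range as ADAM32 and 0.94% as wide a range as CD9. For H3K27me3 ADAM32 ranged over 3.75, which 3.56% of genes reached, and CD9 over 2.20, which 26.9% of genes reached, against a median range of 1.60, so the extreme range of CD9 was in H3K4me2.

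**Figure D1:**
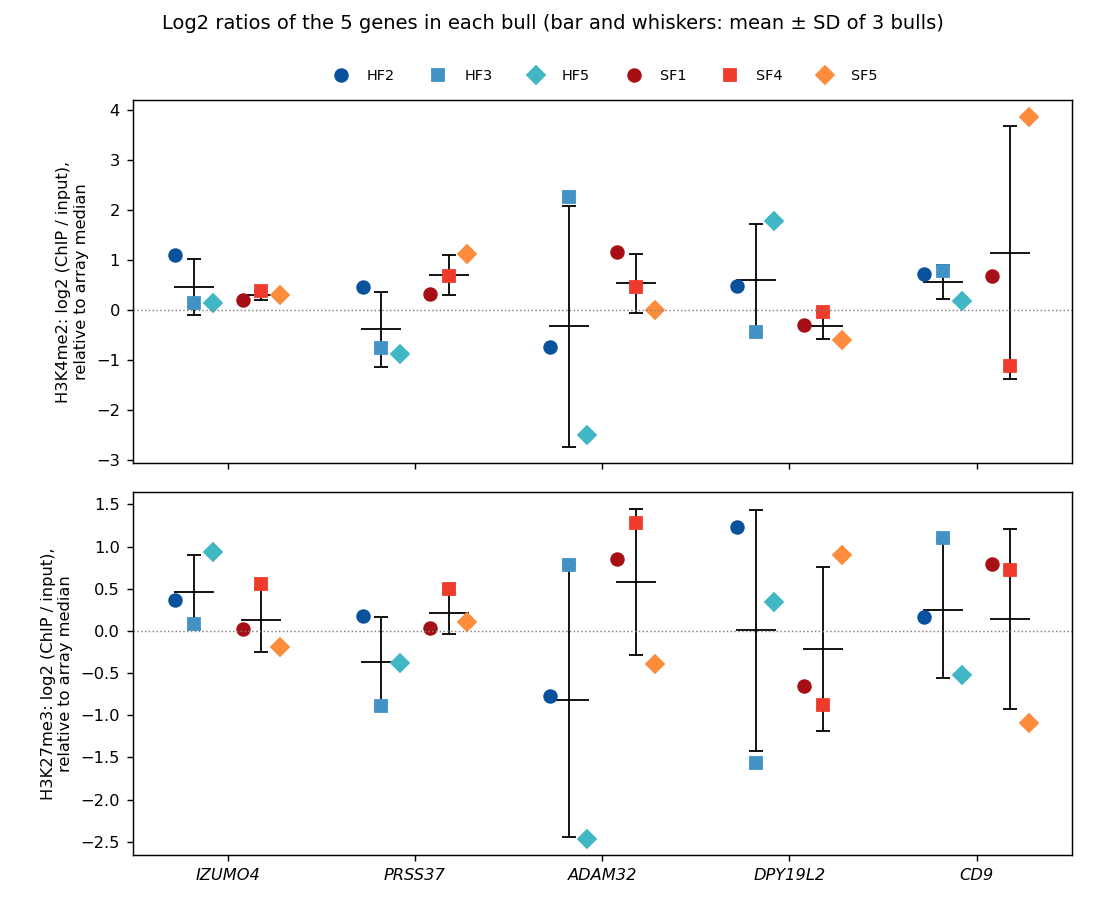
Log2 ratio of immunoprecipitated over input DNA relative to the array median (vertical axes, H3K4me2 above and H3K27me3 below) for the 5 genes, with 1 point per bull, high-fertile bulls left of subfertile bulls, and black bars for the mean ± SD of 3 bulls. The groups overlap for every gene and both marks, and single bulls lie far out: HF3 at 2.28 and HF5 at -2.49 for ADAM32 and SF5 at 3.87 for CD9 in H3K4me2.

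IZUMO4 encodes a member of the IZUMO family, named for IZUMO1, the sperm protein that binds its receptor on the egg. Its gene value, the mean of 3 probes, had the narrowest range between bulls of the 5 genes for both marks. The H3K4me2 log2 ratio was 1.10, 0.15 and 0.15 in HF2, HF3 and HF5, against 0.21, 0.39 and 0.30 in SF1, SF4 and SF5. All 6 bulls thus lay above the array median in gene value, which held for 2.01% of all genes, and HF2 stood above the other 5. By single probes, only HF2 had all 3 above 0, and in HF5 2 of 3 lay below. The means were 0.47 ± 0.55 in high-fertile bulls and 0.30 ± 0.09 in subfertile bulls (SD, n = 3 each), a difference of 0.16. Without HF2 the difference was -0.15.

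For H3K27me3, IZUMO4 read 0.37, 0.08 and 0.94 in HF2, HF3 and HF5, against 0.03, 0.55 and -0.19 in SF1, SF4 and SF5. HF5 was highest, SF5 alone lay below the array median (all 6 bulls lay above it for 1.63% of genes), and the groups overlapped. The means were 0.46 ± 0.43 in high-fertile bulls and 0.13 ± 0.38 in subfertile bulls (SD, n = 3 each), a difference of 0.33. Leaving out 1 bull at a time put it between 0.10 without HF5 and 0.55 without SF4. The 3 probes share bases, and yet they parted, for H3K4me2 most in the bulls numbered 5. Single H3K4me2 probes also ran from -0.12 to 1.07 in SF4 and from -0.25 to 0.69 in HF3. In HF5 the H3K4me2 log2 ratio was 1.35 at the first probe and -0.88 at the last, and in SF5 it was 1.25 at the first, -1.10 at the middle one and 0.74 at the last. The input signal of IZUMO4 was low in HF2, at -1.10 relative to the array median, against -0.15 to 0.43 in the other 5 bulls. The H3K4me2 immunoprecipitated signal of HF2 was the lowest of the 6 bulls, at 0.06, although its ratio was the highest.

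CD9 encodes a tetraspanin, a membrane-spanning protein that the egg needs for fusion in mice, and it is made by many somatic cells. Its H3K4me2 log2 ratio was 0.73, 0.78 and 0.19 in HF2, HF3 and HF5, against 0.70, -1.12 and 3.87 in SF1, SF4 and SF5. SF5 stood far above and SF4 below all other bulls, so the subfertile range enclosed the high-fertile one. The means were 0.57 ± 0.33 in high-fertile bulls and 1.15 ± 2.53 in subfertile bulls (SD, n = 3 each). The difference was -0.58 with SF5 and 0.78 without SF5, so 1 bull sets its sign, and it was -1.72 without SF4. The mean over 6 bulls, 0.86, was reached by 0.911% of genes. Without SF5 the average of the high-fertile and the subfertile group mean, each with equal weight, was 0.18.

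The value of SF5 came from 1 short stretch. Over the 15 probes of the third stretch, 109 bp long, the H3K4me2 log2 ratio of SF5 averaged 5.74, with single probes between 4.97 and 6.30, which is a 53.3-fold ratio of immunoprecipitated over input DNA relative to the array median. Over the 5 probes of the second stretch, which begins 81 bp from the first probe where the third begins 678 bp from it, the same array read -1.13, with every probe below 0. In the other 5 bulls the third stretch averaged 0.97, 0.86 and 0.29 in HF2, HF3 and HF5, against 0.76 and -0.81 in SF1 and SF4. The H3K27me3 array of SF5 read -1.44 over the third stretch, with 14 of 15 probes below 0. SF4 was low at the second stretch for H3K4me2, at -2.22, where the 3 high-fertile bulls read 0.09, 0.66 and -0.24. The H3K4me2 group difference was 1.09 over the second stretch and -1.19 over the third. The difference of the gene thus also depends on the third stretch holding 15 of its 21 probes.

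Of the 2 channels, the immunoprecipitated DNA was the one in which SF5 stood apart. The H3K4me2 immunoprecipitated signal of CD9 in SF5 was 3.35 above its channel median, against -1.38 to -0.19 in the other 5 bulls. The input signal of SF5, -0.67, lay inside the range of the other bulls, -2.05 to -0.24. Of the genes of SF5, 11 of 6805 (0.162%) had as large a gap between H3K4me2 and H3K27me3 as CD9, 4.96. The H3K4me2 array of SF5 is 1 of the 2 whose ratios followed base composition most. Relative to probes of equal G and C content, an alternative chosen after seeing the data, the difference of CD9 was -0.59. After loess normalisation within the array that difference was -0.23, and from the authors' deposited value table it was -0.12. The median of the 5 epithelial marker genes was also highest in SF5 for H3K4me2, at 1.28, against -0.15 to 0.58 in the other 5 bulls. For H3K27me3 that median was again highest in SF5, at 0.59, where CD9 was lowest, at -1.09. The leukocyte, somatic testis and sperm medians of SF5 for H3K4me2, -0.06, 0.10 and 0.27, lay inside the range of the other bulls. A part of any of these in the CD9 value was not tested.

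For H3K27me3, CD9 read 0.17, 1.11 and -0.52 in HF2, HF3 and HF5, against 0.79, 0.72 and -1.09 in SF1, SF4 and SF5. The bulls numbered 5 were the only ones below the array median, 1 in each group. The means were 0.25 ± 0.81 in high-fertile bulls and 0.14 ± 1.07 in subfertile bulls (SD, n = 3 each), and the difference of 0.11 was -0.32 without HF3 and -0.51 without SF5.

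**Figure D2:**
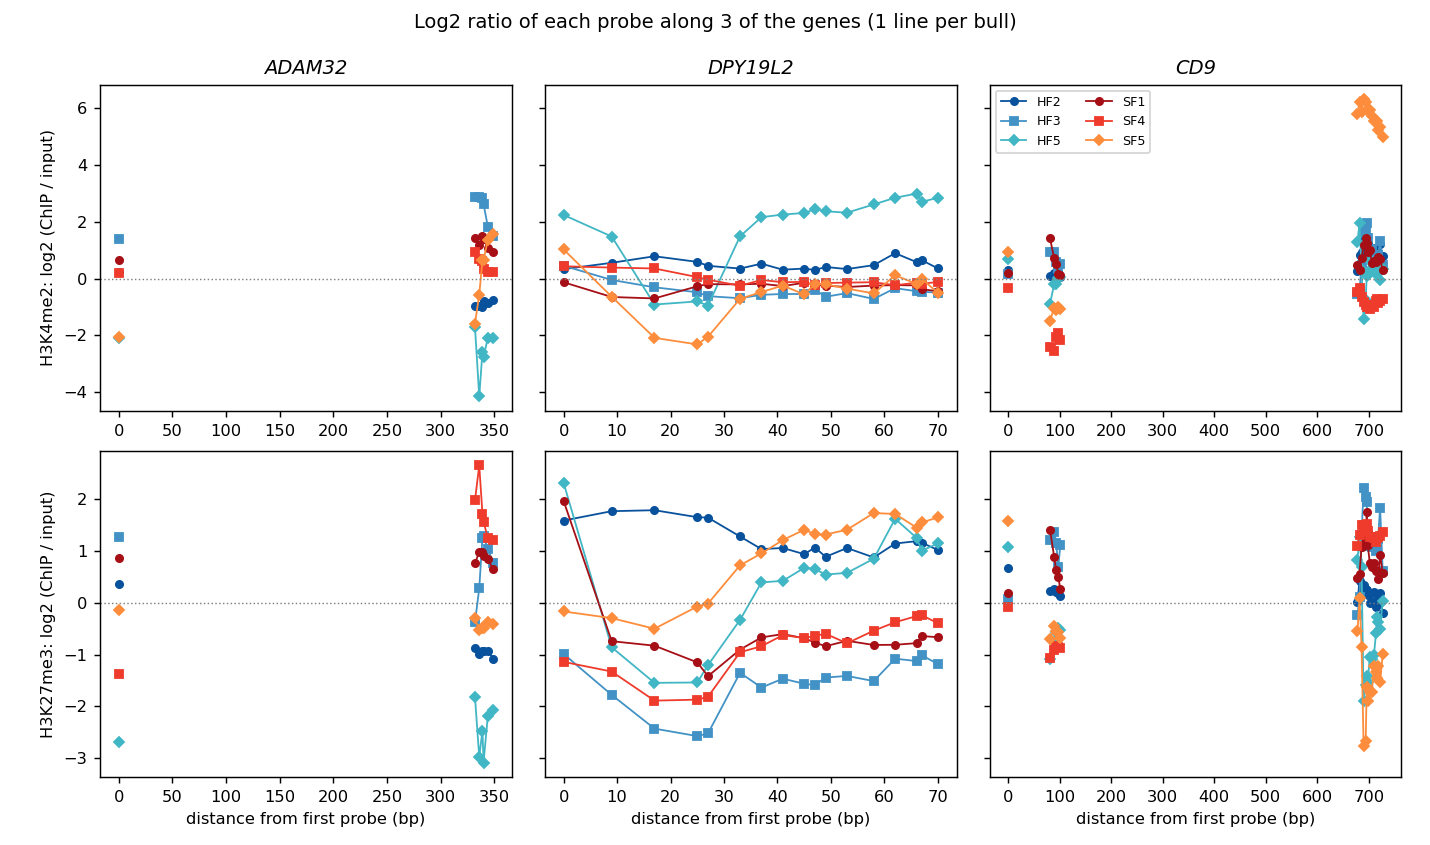
Log2 ratio of each probe (vertical axes, H3K4me2 above and H3K27me3 below) against the distance of its first base from the first probe of the gene (horizontal axes, bp) for ADAM32, DPY19L2 and CD9, with 1 colour per bull and probes of 1 stretch joined. SF5 stands between 4.97 and 6.30 at the last CD9 stretch for H3K4me2 only, HF5 lies below 0 at every ADAM32 probe on both arrays, and the DPY19L2 values dip at probes 3 to 5 in several bulls.

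PRSS37 encodes a serine protease-like protein of the testis that in mice is needed for the maturation of the sperm surface protein ADAM3 and for sperm to enter the oviduct. Its H3K4me2 log2 ratio was 0.47, -0.74 and -0.87 in HF2, HF3 and HF5, against 0.33, 0.68 and 1.12 in SF1, SF4 and SF5. HF3 and HF5 lay below all 3 subfertile bulls, and HF2 lay among them. By percentile among the genes of each array this held as well, but SF5 then stood below SF4. The means were -0.38 ± 0.74 in high-fertile bulls and 0.71 ± 0.40 in subfertile bulls (SD, n = 3 each), a difference of -1.09, and 7.58% of all genes had as large a difference in either direction. For H3K27me3 it read 0.17, -0.89 and -0.38 in HF2, HF3 and HF5, against 0.03, 0.50 and 0.11 in SF1, SF4 and SF5. The same 2 high-fertile bulls were lowest and HF2 again lay inside the subfertile range. The means were -0.36 ± 0.53 in high-fertile bulls and 0.21 ± 0.25 in subfertile bulls (SD, n = 3 each), a difference of -0.58, which 25.8% of genes reached in size. It was -0.32 without HF3 and -0.84 without HF2.

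The 3 PRSS37 probes did not move together. In SF5 the H3K4me2 log2 ratio was 2.42 at the first probe, 3.08 at the second, 165 bp further on, and -2.12 at the third, 4675 bp from the first. In HF3 the order was turned, with -1.54 and -1.23 at the first pair and 0.54 at the third. The group difference was -1.09 at the first probe, -2.22 at the second and 0.03 at the third for H3K4me2. For H3K27me3 it was -0.48, -1.19 and -0.05 in the same order. The difference of the gene thus rests on the first pair of probes. The H3K4me2 immunoprecipitated signal averaged -0.78 ± 0.54 in high-fertile bulls and -0.06 ± 0.84 in subfertile bulls, while the input averaged -0.49 ± 0.64 in high-fertile bulls and -0.85 ± 0.40 in subfertile bulls (SD, n = 3 each). Set against 1 common input, the mean of the 6 bulls, the difference was -0.68 for H3K4me2 and -0.17 for H3K27me3. PRSS37 had the fewest G and C bases of the 5 genes, and relative to probes of equal G and C content its differences were -1.15 for H3K4me2 and -0.46 for H3K27me3.

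ADAM32 encodes a testis member of the ADAM family, which in sperm takes part in adhesion and in the migration of sperm to the egg. Its H3K4me2 log2 ratio was -0.73, 2.28 and -2.49 in HF2, HF3 and HF5, against 1.17, 0.46 and -0.00098 in SF1, SF4 and SF5. Both the highest and the lowest bull were high-fertile. Among the genes of its array HF3 stood at the 99th percentile and HF5 at percentile 0.514. The means were -0.32 ± 2.41 in high-fertile bulls and 0.55 ± 0.59 in subfertile bulls (SD, n = 3 each), a difference of -0.86, which was 0.23 without HF5 and -2.16 without HF3.

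For H3K27me3, ADAM32 read -0.77, 0.78 and -2.47 in HF2, HF3 and HF5, against 0.85, 1.28 and -0.39 in SF1, SF4 and SF5. HF5 was again lowest, at a percentile of 0.500, and HF3 lay inside the subfertile range. The means were -0.82 ± 1.63 in high-fertile bulls and 0.58 ± 0.87 in subfertile bulls (SD, n = 3 each). The difference of -1.40 was reached in size by 2.76% of all genes, and it was -0.57 without HF5 and -2.20 without HF3. Among the 51 probes of the 5 genes the groups did not overlap at 1 for H3K27me3, the second ADAM32 probe, where all 3 high-fertile bulls were lower, and at 0 for H3K4me2, against 8.03% and 7.17% of all probes.

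The bulls at the extremes of ADAM32 for H3K4me2 differed in the channel that was low. In HF5 the immunoprecipitated signal was low for both marks, at -2.96 for H3K4me2 and -3.02 for H3K27me3, and the input, -0.50, was among the higher ones. In HF3 the input was the lowest of the 6 bulls, at -3.41, against -2.20 to -0.41 in the others. The H3K4me2 immunoprecipitated signal of HF3 was -0.84, close to the -0.92 of SF1 and the -0.97 of SF5. For H3K27me3 the immunoprecipitated signal of HF3 was low as well, at -2.59, and only that of HF5 was lower. Both input hybridisations of a bull gave nearly the same ADAM32 value, with a largest gap of 0.29. These extremes are thus ratios in which 1 signal was far below its channel median. ADAM32 probes 4 and 5 were well above background in only 11 of the 12 input hybridisations. Probes 1, 3, 4 and 5 were so in only 11 of the immunoprecipitated ones. From probes well above background in both channels on all arrays, the ADAM32 differences were -0.92 for H3K4me2 and -1.46 for H3K27me3. All 7 probes of HF5 were below 0 on both arrays, and all 7 probes of HF3 were above 0 for H3K4me2. The promoter probe lies 332 bp before the others and had its own pattern: in SF4 it read -1.37 for H3K27me3 where the other 6 averaged 1.72, and in SF5 it read -2.07 for H3K4me2 where the others averaged 0.34.

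DPY19L2 encodes a protein of the inner nuclear membrane that anchors the acrosome to the nucleus, and its loss in humans and mice gives round-headed sperm without an acrosome. Its H3K4me2 log2 ratio was 0.48, -0.43 and 1.79 in HF2, HF3 and HF5, against -0.30, -0.04 and -0.58 in SF1, SF4 and SF5. HF2 and HF5 stood above all subfertile bulls, and HF3 lay inside the subfertile range. The means were 0.61 ± 1.11 in high-fertile bulls and -0.31 ± 0.27 in subfertile bulls (SD, n = 3 each), a difference of 0.92, which 11.6% of genes reached in size. It was 0.33 without HF5 and 1.44 without HF3. The difference was positive at 17 of 17 probes, between 0.39 and 1.26, but these probes read the same 130 bp.

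For H3K27me3, DPY19L2 read 1.24, -1.57 and 0.35 in HF2, HF3 and HF5, against -0.65, -0.88 and 0.90 in SF1, SF4 and SF5. HF2 was highest and HF3 lowest, so the high-fertile range enclosed the subfertile one. The means were 0.01 ± 1.43 in high-fertile bulls and -0.21 ± 0.97 in subfertile bulls (SD, n = 3 each), and the difference of 0.22 lay between -0.40 without HF2 and 1.00 without HF3, and was also below 0 without SF4, at -0.12, and without SF1, at -0.0035.

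Along the 130 bp the ratio changed within a few bases. In HF5 the H3K4me2 log2 ratio was 2.24 at the first probe, between -0.95 and -0.80 at probes 3 to 5, and between 2.16 and 2.99 from the seventh on. SF5 showed the same dip on its H3K4me2 array, with -2.31 to -2.05 at probes 3 to 5 and -0.55 to 0.12 from the seventh on. HF5 had the dip for H3K27me3 as well, with 2.31 at the first probe, -1.55 to -1.21 at probes 3 to 5 and 0.39 to 1.61 from the seventh on. On the H3K27me3 arrays probes 3 to 5 also read -2.57 to -2.43 in HF3 and -1.89 to -1.81 in SF4, below all their other probes. SF1 read 1.96 at the first probe for H3K27me3 and was lowest at probes 4 and 5, at -1.15 and -1.42, and stayed below 0 from there on. HF2 did not have it, with 1.64 to 1.78 at these probes for H3K27me3 and at most 1.18 from the seventh on. The dipping probes held 4 CpG sites each and at most 53.3% G and C bases, inside the range of the other DPY19L2 probes. Relative to probes of equal G and C content the H3K4me2 difference of the gene was 0.92.

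**Figure D3:**
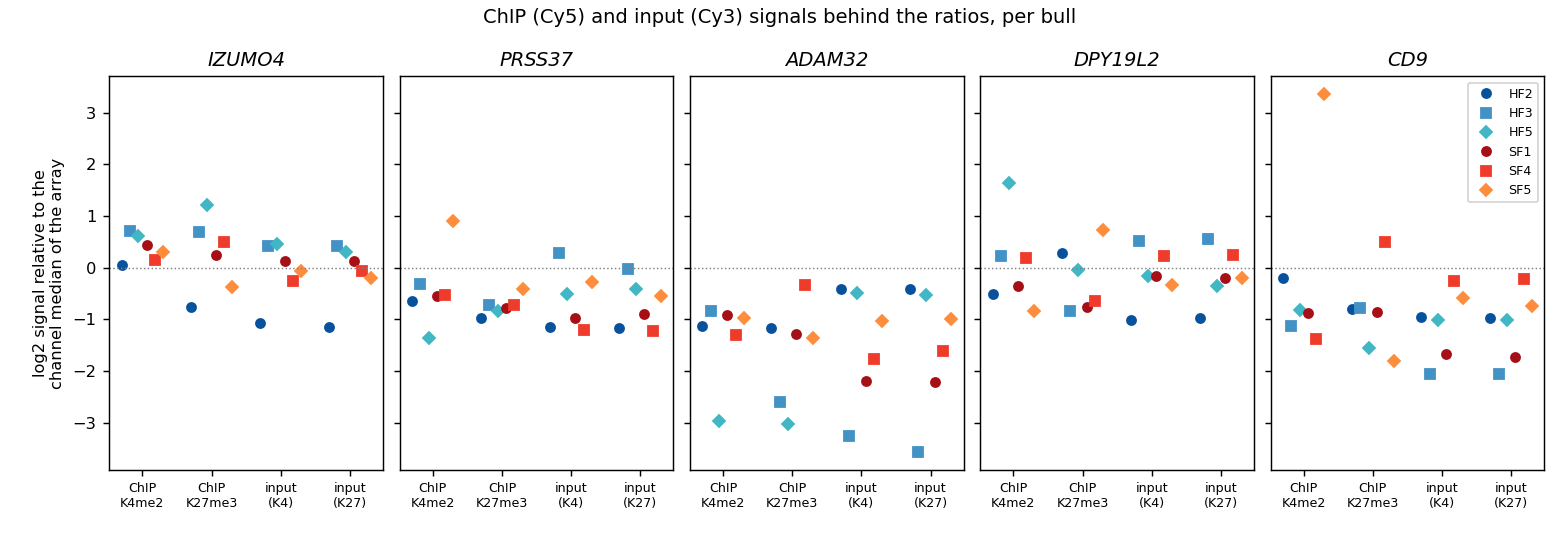
Log2 signal of the immunoprecipitated (Cy5) and input (Cy3) DNA relative to the channel median of the array (vertical axis) for each gene, with 1 point per bull, high-fertile bulls left of subfertile bulls, for both marks. The 2 input columns of a gene nearly repeat each other, HF3 has the lowest ADAM32 input at -3.26 and -3.56, and SF5 alone has a high CD9 signal in the H3K4me2 immunoprecipitated DNA at 3.35.

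HF5 and SF1 shared 1 slide, and each other bull had a slide of its own, so group and slide can be parted only within that slide. There the H3K4me2 value of HF5 minus that of SF1 was -0.06 for IZUMO4, -0.51 for CD9, -1.21 for PRSS37, -3.66 for ADAM32 and 2.08 for DPY19L2. For H3K27me3 it was 0.91, -1.31, -0.41, -3.32 and 1.00 in the same order of genes. A fit with the slide as a block returns these values, since the other slides hold 1 bull each. The sign differed from that of the 3 against 3 comparison for IZUMO4 in H3K4me2 and for CD9 in H3K27me3.

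Both marks were read in the same 6 bulls with input DNA of the same bull in both ratios. For PRSS37 and ADAM32 a bull above the mean of 6 for H3K4me2 was also above it for H3K27me3, and a bull below for the one was below for the other, in 6 of 6 bulls. This held in 5 of 6 bulls for IZUMO4 and DPY19L2 and in 2 of 6 for CD9, and in at least 5 of 6 bulls for 41.4% of all genes. H3K4me2 minus H3K27me3 averaged 0.09 ± 0.53 for IZUMO4, 0.66 ± 2.29 for CD9, 0.24 ± 0.48 for PRSS37, 0.23 ± 0.75 for ADAM32 and 0.26 ± 1.15 for DPY19L2 (SD, n = 6 each). H3K4me2 was the higher mark in 5 of 6 bulls for PRSS37, in 3 of 6 for CD9 and in 4 of 6 for the others. It was the higher one in all 6 bulls for 2.44% of genes and for 0 of 5 members. In SF5 the CD9 values were 3.87 for H3K4me2 and -1.09 for H3K27me3, and in SF4 the order was turned, with -1.12 for H3K4me2 and 0.72 for H3K27me3. For DPY19L2, H3K4me2 minus H3K27me3 was -0.75, 1.14 and 1.44 in HF2, HF3 and HF5, against 0.36, 0.84 and -1.48 in SF1, SF4 and SF5. A gap as large as that of SF5 was reached by 16.1% of genes in that bull. The 90th percentile of the size of the gap over all genes was 0.74, 0.96 and 1.55 in HF2, HF3 and HF5. It was 0.53, 1.13 and 1.87 in SF1, SF4 and SF5.

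**Figure D4:**
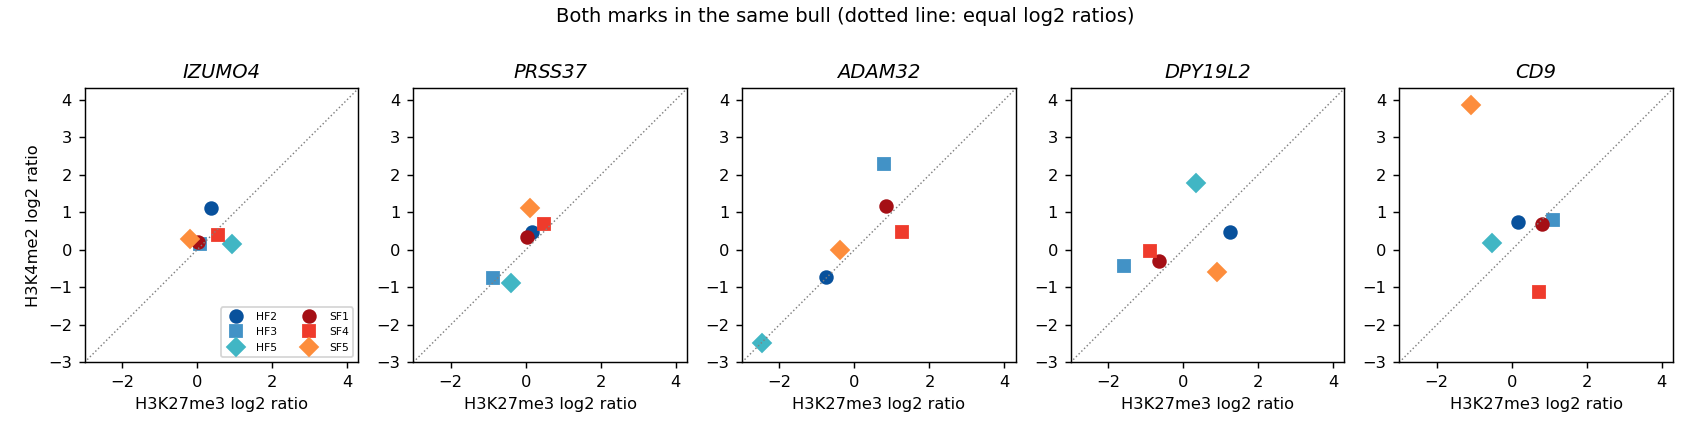
H3K4me2 log2 ratio (vertical axis) against H3K27me3 log2 ratio (horizontal axis) of each gene, with 1 point per bull and a dotted line where both are equal. The ADAM32 and PRSS37 points lie on the same side of 0 for both marks in 6 of 6 bulls, and the CD9 point of SF5, at 3.87 against -1.09, lies farthest from the dotted line.

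Of a wider list of 88 genes of the acrosome and fertilization, grouped by role and drawn up with earlier results of these arrays known, 32 had a kept probe and 23 were measured by at least 2. For H3K4me2, 13 of the 23 had a positive and 10 a negative difference between high-fertile and subfertile bulls, with a median of 0.06 against -0.02 over all genes. For H3K27me3, 10 were positive and 13 negative, with a median of -0.08 against 0.0073 over all genes. Without the 5 members, 11 of 18 were positive for H3K4me2 and 7 of 18 for H3K27me3. Of these 18, 0 passed limma's test after adjustment for either mark, 0 were at an unadjusted p under 0.05, and 0 had groups that did not overlap. Over all genes the unadjusted share was 2.91% for H3K4me2 and 4.07% for H3K27me3, and groups did not overlap for 6.58% and 8.57%, so a list of 18 genes would hold few or none at these shares.

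Among the gamete membrane genes, IZUMO2, IZUMO3, SPACA7, DCST1 and TMEM190 were measured beside IZUMO4 and CD9. Their H3K4me2 differences lay between -0.35 for SPACA7, an acrosomal protein, and 0.21 for TMEM190. The H3K4me2 log2 ratio averaged over 6 bulls was -0.23 for IZUMO2 and 0.0028 for IZUMO3, against 0.38 for IZUMO4. Of the genes of sperm ADAM proteins and their maturation, CALR3, a testis chaperone that ADAM3 needs in mice, was the only one measured beside ADAM32. CALR3 had differences of -0.03 for H3K4me2 and 0.13 for H3K27me3. For H3K4me2 its high-fertile bulls had an SD of 0.11 where ADAM32 had 2.41. In subfertile bulls the SDs were close, 0.55 for CALR3 and 0.59 for ADAM32. SPAM1, a sperm hyaluronidase, and ZPBP, a zona pellucida binding protein of the acrosome, had H3K4me2 differences of 0.30 and 0.18, against -1.09 for PRSS37.

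Of the acrosome formation genes, 7 of 9 had a positive H3K4me2 difference, from 0.06 for ACTL7A, an actin-like protein of the sperm head, to 0.92 for DPY19L2, and AGFG1 and SMAP2 were negative, at -0.42 and -0.48. Without DPY19L2, a chosen gene, 6 of 8 were positive, against 3282 of 6805 over all genes, and no trend of the role was tested. For H3K27me3, 5 of the 9 were positive, with SMAP2 highest at 0.60. PICK1 and GOPC, whose loss in mice also disturbs acrosome formation, had H3K4me2 differences of 0.48 and 0.32 and H3K27me3 differences of -0.08 and 0.03. ACTL9 and GOLGA2, a Golgi matrix protein, read 0.32 and 0.21 for H3K4me2. SMAP2 and TMF1, both of Golgi trafficking, were the lowest of the list in mean ratio, at -0.79 and -0.95 for H3K4me2 and -0.91 and -0.96 for H3K27me3. Of the genes for the acrosome reaction and egg activation, PLCZ1, the sperm phospholipase that starts calcium waves in the egg, had an H3K4me2 difference of -0.96 with a 95% confidence interval of 2.12 on either side. RAB3A, a small GTPase of acrosomal release, had -0.74 for H3K4me2 and -0.84 for H3K27me3.

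**Figure D5:**
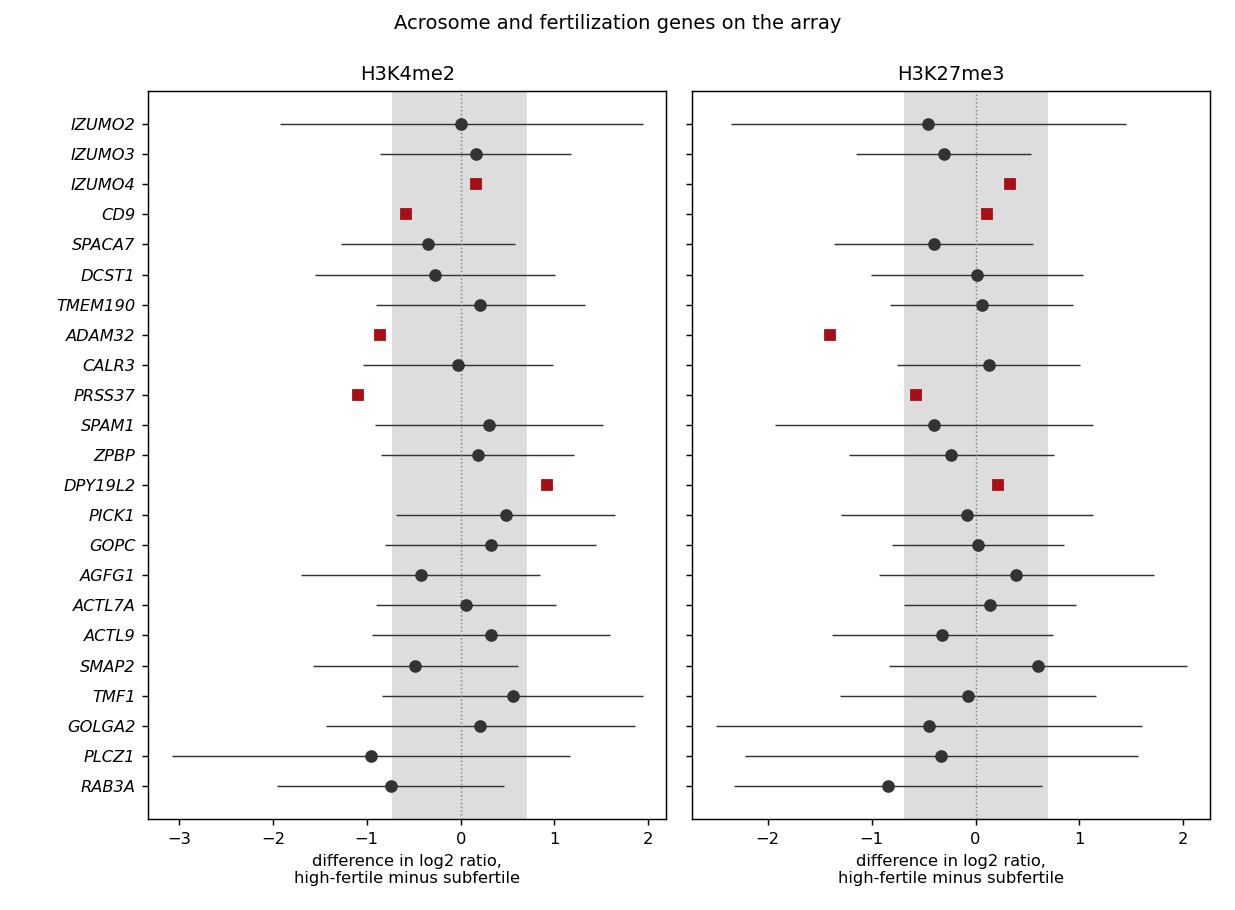
Difference in log2 ratio, high-fertile minus subfertile (horizontal axes), for the 23 measured genes of the acrosome and fertilization list, H3K4me2 on the left and H3K27me3 on the right. Red squares are the 5 chosen genes, given without an interval, black points with lines are the other genes with 95% confidence intervals, and the grey band spans the 10th to 90th percentile of all genes. Every interval crosses 0.

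Other relatives by name were measured for 3 of the genes. Of the ADAM family, ADAM9, ADAM12, ADAM15 and ADAM22, which act in somatic tissues, had H3K4me2 differences between -0.46 and 0.18, against -0.86 for ADAM32. Of the PRSS genes PRSS23 was measured, with 0.17 for H3K4me2 and 0.80 for H3K27me3, against -1.09 and -0.58 for PRSS37. Beside CD9, 12 tetraspanins were measured, with H3K4me2 differences from -1.98 for TSPAN3 to 0.49 for TSPAN5. Their mean H3K4me2 ratios reached 0.56 in TSPAN18, against 0.86 for CD9. The CD9 value rests on SF5: without that bull the average of its group means was 0.18, below the TSPAN18 value, which includes SF5.

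The genes whose values were most like those of a member over the 12 arrays of 6 bulls, among 6497 genes compared, lay on other cattle chromosomes. Pearson's r, given as a description, was 0.88 between IZUMO4 and CDH7, 0.93 between CD9 and SPATA5L1, 0.93 between PRSS37 and FSCN2, 0.95 between ADAM32 and COL4A1 and 0.95 between DPY19L2 and THAP9. The second in order were LASP1 at 0.82, PAPOLG at 0.92, CSNK1A1 at 0.91, FAM135B at 0.94 and EGFL8 at 0.90. The 2 arrays of a bull share its input DNA, and an r above 0.8 was reached by 3 genes for IZUMO4, 59 for CD9, 38 for PRSS37, 77 for ADAM32 and 18 for DPY19L2.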

How the data were processed

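The 12 arrays each carried both dyes. The processed signal intensities, per the file headers, came from Agilent Feature Extraction 10.7.3.1, which subtracted background and normalised the dyes linearly within the array. The authors' deposited log10 ratios are those of Cy5 (immunoprecipitated DNA) over Cy3 (input DNA). The authors' deposited value table holds ratios that are log2 by the size of their values, of unstated normalisation and centring, with column medians of -0.13 to 0.10. Against the scanner values it correlated at 0.74 to 0.995, and at 0.982 to 0.995 after loess, which settles its direction. It served as an alternative.

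Ratios were centred on the array median. Probes with input well above background on at least 6 arrays were kept (177372 of 177440), and a gene's value is the mean of its kept probes, with at least 2. limma 3.58.1 in R 4.3.3 (lmFit, eBayes, two-sided, Benjamini-Hochberg) was fitted to 6805 genes and tested on simulated data. The members and all gene lists were chosen with earlier results of these data known. Named genes are the 5 members, the measured genes of the acrosome list (1 gene of which is not reported here and was left out of its counts), relatives by symbol, and for each member the 2 genes with the highest Pearson r. Both arrays of a bull carry its name in the labels, and their inputs correlated at 0.908 or more, against at most 0.244 between bulls. Whether replicates were separate collections of semen is not stated, and each group holds 3 different bulls.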

Additional observations from a re-analysis of the deposited data

How the results depend on the processing

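The counts of called genes for the 6 comparisons were 0 under all 104 combinations of comparison and alternative, including the replicate block of the bull, which gave 0 calls for the difference between marks and for its interaction with fertility. Of 530 recomputed member values, 519 moved by less than 1 SD between bulls, and 42 had the opposite sign, spread over 19 of 30 values. The SD is that between bulls of a group, so it allows large moves where bulls differ widely. The CD9 difference in H3K4me2 went from -0.58 to 0.97 without both HF5 and SF5 and still counted as within 1 SD. A minimum of 1 probe could not move a member, since each has at least 2. All probes of the members had passed the filter on input signal, so lifting it moved them only through the array median. Leaving out the centring likewise moved them by array medians only. The count is thus no measure of stability. The group differences of PRSS37 in both marks, ADAM32 in H3K27me3 and DPY19L2 in H3K4me2 kept their sign under all 18 alternatives. PRSS37 lay between -2.00 and -0.64 for H3K4me2 and between -1.10 and -0.17 for H3K27me3. ADAM32 lay between -3.32 and -0.57, and DPY19L2 between 0.19 and 2.08. The ends -3.32 and 2.08 are HF5 minus SF1 within 1 slide, a difference of single bulls. The next were -2.20 and 1.44, both without HF3. Leaving out both HF5 and SF5 and matching G and C content were chosen after seeing the data. Without both bulls the CD9 difference in H3K4me2 was 0.97, that of ADAM32 was -0.05 and that of IZUMO4 in H3K27me3 was -0.06. Computed from the authors' deposited value table, the CD9 difference in H3K4me2 was -0.12. With no dye swap, dye effects cannot be told apart from enrichment.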
